A study of Mus musculus with 8 samples.

Results

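The common gamma chain receptor family was examined by RNA sequencing in naive CD4 T cells and in the effector Th1, Th2 and Th17 cells derived from them. The members were set by name as the 8 genes Il2ra, Il2rb, Il2rg, Il4ra, Il7r, Il9r, Il15ra and Il21r, out of 23284 genes listed, and FPKM was summed where a symbol had more than 1 row. FPKM scales the sequenced fragments of each gene to its exon length and to library depth, so levels of different genes can be set side by side within a library. All cells came from DO11.10 Tg mice, whose transgenic TCR recognizes an OVA peptide, and each of the 4 groups had 2 libraries, numbered as replicates 1 and 2. Naive cells were splenic CD4+ cells sorted as CD44low CD62Lhi and sequenced without culture. The 3 effector groups started from such cells and were stimulated for 6 days with OVA peptide and irradiated splenocytes depleted of T cells. The cultures differed in their cytokines, of which IL-2 and IL-4 are ligands of the family. For Th1 cells they were IL-2 (30 U/ml) with IL-12 (100 U/ml) and an anti-IL-4 Ab (1 μg/ml). For Th2 cells they were IL-2 (30 U/ml) with IL-4 (100 U/ml) and an anti-IFN-γ Ab (10 μg/ml). For Th17 cells they were IL-6, IL-1β and IL-23 (10 ng/ml each) with both antibodies (10 μg/ml each), and no added IL-2 is listed. The study's mice were 6 to 12 weeks old. Their sex, and whether the cultured cells were sorted before RNA extraction, are not given in the sources used here. As the naive cells were not cultured, culture and differentiation cannot be told apart in a comparison with them.

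Cytokine receptors of this family share the common gamma chain, encoded by Il2rg, which binds the kinase JAK3. Each receptor adds a chain of its own that carries JAK1, namely Il2rb for IL-2 and IL-15, Il4ra for IL-4, Il7r for IL-7, Il9r for IL-9 and Il21r for IL-21. Il2ra (CD25) and Il15ra encode additional alpha chains that raise the affinity for IL-2 and IL-15 and have no signaling part of their own. Ligand binding brings the chains together and activates STAT5, STAT6 or STAT3. In T cells, IL-7 is known for the survival of naive and memory cells, IL-2 for the expansion of activated cells and IL-4 for Th2 differentiation, and loss of Il2rg causes a severe immunodeficiency.

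The number of fragments implied by the confidence interval of each FPKM value summed to 14463466 to 21058286 per library. This estimate treats the interval as counting error only, which does not hold for every gene. Bcl2, at an FPKM of 22.1 and 20.8 in the naive libraries, gave 114 and 2577 implied fragments. Cd3e and Cd4, which define CD4 T cells, were high in every library, with a summed FPKM of 709 and 715 in naive cells and 401 to 522 in effector cells. Tbx21 and Ifng were highest in both Th1 libraries, Gata3 and Il13 in both Th2 libraries, and Il17f in both Th17 libraries. Of the 23284 genes, 11198 averaged an FPKM of 1 or more and were tested with limma on log2(FPKM + 1), a scale that understates the change of genes with low FPKM. Groups of 2 against 2 libraries have a smallest exact permutation p of 0.333, so calls rest on the spread that limma pools over genes and groups. The median difference of all genes tested from naive cells was -0.014 for Th1, -0.11 for Th2 and 0.077 for Th17. After division by the median of each library it was 0.017, 0.0016 and 0.034, and after quantile normalization it was -0.13, -0.13 and -0.12.

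The family was not raised or lowered as a block. Against naive cells, Il2ra, Il2rb and Il4ra rose in all 3 subsets, Il2rg fell in all 3, and Il7r, Il21r and Il15ra took a different course in different subsets. Of the 8 members, 7 passed the filter, and Il9r did not. In Th1 cells, 4 members were higher and 1 was lower than in naive cells, where 33.8% of all genes tested were higher and 33.5% lower. In Th2 cells, 4 were higher and 3 lower, against 31.8% and 38.7% of all genes. In Th17 cells, 4 were higher and 2 lower, against 37.5% and 29.8% of all genes. Calls were this common across the transcriptome, so the number of members called does not set the family apart, and the sizes of the changes are given below by role. The median difference over the 7 members was 0.35 in Th1 cells, 0.52 in Th2 cells and 0.65 in Th17 cells.

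**Figure D1:**
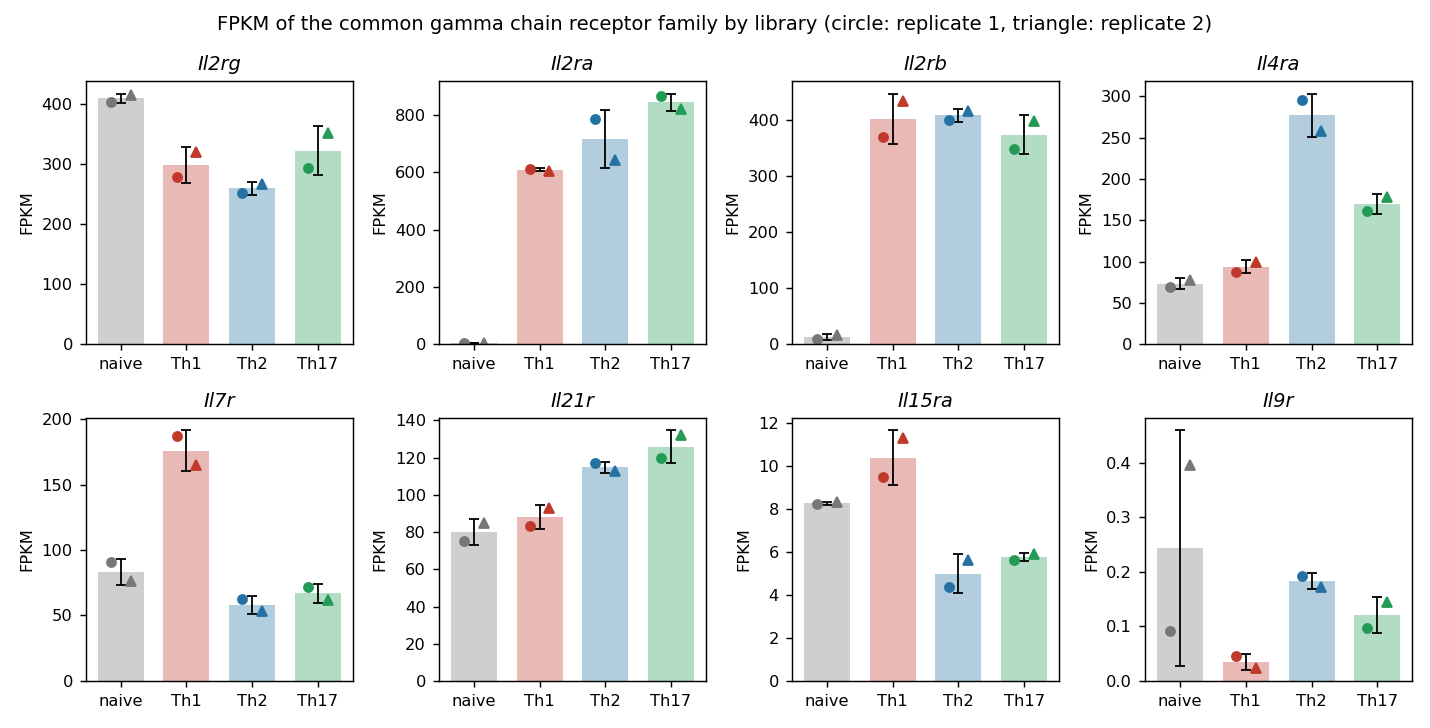
FPKM of the 8 members (one panel each, linear axis from 0) in naive, Th1, Th2 and Th17 cells. Bars are means, error bars SD over 2 libraries, and circles and triangles are replicates 1 and 2. Il2ra and Il2rb rise from a low naive level, Il2rg falls, Il4ra is highest in Th2 (277), Il7r is highest in Th1 (176), and Il9r stays under 0.4 in every library.

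Il2rg, the shared chain, was the most abundant member in naive cells. Of the 7 members tested, it alone was lower in all 3 effector subsets. It lies on the minus strand of chromosome X of mm10, between 101264387 and 101268206. Its FPKM was 404 and 416 in naive cells, 278 and 321 in Th1 cells, 252 and 268 in Th2 cells, and 294 and 352 in Th17 cells. Both naive libraries lay above all 6 effector libraries, while the Th1 and Th17 libraries overlapped. The log2 difference from naive cells was -0.45 ± 0.13 (SE) in Th1 (limma, adjusted p = 0.0183), -0.66 ± 0.13 in Th2 (limma, adjusted p = 0.00343) and -0.35 ± 0.13 in Th17 cells (limma, adjusted p = 0.0495). The mean FPKM was thus 0.731, 0.634 and 0.788 times the naive mean. In bulk RNA, fewer cells of a type and less RNA per cell cannot be told apart. The Th2 call held in all 16 alternatives (adjusted p 0.000823 to 0.0229, limma). The Th1 call was lost without naive replicate 2 (-0.43, adjusted p = 0.0646, limma) and without Th1 replicate 1 (-0.35, adjusted p = 0.113, limma). The Th17 call was lost when any library other than Th17 replicate 2 was left out (adjusted p 0.0614 to 0.246, limma) and passed in 7 of 16 alternatives. Cd3e and Cd4 were lower in effector cells as well, and Il2rg per Cd3e was 1.18 ± 0.044 in naive cells, 1.25 ± 0.056 in Th1 cells, 1.13 ± 0.064 in Th2 cells and 1.59 ± 0.13 in Th17 cells (SD, n = 2). Il2rg per Cd4 was 1.12 ± 0.0092 in naive cells, 1.14 ± 0.042 in Th1 cells, 1.32 ± 0.035 in Th2 cells and 1.31 ± 0.068 in Th17 cells. For Th2 cells the mean was thus below that of naive cells with Cd3e and above it with Cd4, and for Th1 and Th17 cells it was above with both. The annotated gene Gm20489 lies on the same strand across Il2rg and shares 728 exon bases with it. Gm20489 is not among the 23284 genes listed, so any reads from it could have been counted to Il2rg.

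Promoter sequences of Il2rg, Il2ra and Il4ra are shown here because the first was lower and the others higher in effector than in naive cells. They come from RefSeq (GRCm38.p6), run 5′ to 3′ on the strand of the gene, and are limited to bases upstream of every annotated exon of that gene. RefSeq promoter entries were found for 7 of the 8 members, Il2rb being the exception. Capitals mark GGAA, the core of ETS and NFAT sites, read on either strand and hence also as TTCC. The positions are chrX:101268256-101268505 on the minus strand for Il2rg, chr2:11642542-11642791 on the plus strand for Il2ra and chr7:125552021-125552119 on the plus strand for Il4ra.
Il2rg: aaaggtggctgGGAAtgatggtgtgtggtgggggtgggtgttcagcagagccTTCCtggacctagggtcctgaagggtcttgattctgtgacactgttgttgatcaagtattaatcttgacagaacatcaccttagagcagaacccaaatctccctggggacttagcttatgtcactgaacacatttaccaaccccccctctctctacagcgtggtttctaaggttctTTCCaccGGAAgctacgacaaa
Il2ra: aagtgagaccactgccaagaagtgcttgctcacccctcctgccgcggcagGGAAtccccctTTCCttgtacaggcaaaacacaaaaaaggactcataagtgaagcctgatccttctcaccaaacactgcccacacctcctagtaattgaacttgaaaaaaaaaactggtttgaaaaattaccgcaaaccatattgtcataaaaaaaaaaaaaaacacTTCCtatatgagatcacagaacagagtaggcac
Il4ra: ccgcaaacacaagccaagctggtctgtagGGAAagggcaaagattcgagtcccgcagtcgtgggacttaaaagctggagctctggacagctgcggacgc
In the windows of 250 bases before the start, Il2rg held 4 such matches, Il2ra 3 and Il4ra 2, of which 1 lies in the part printed. Among the other members, Il7r held 4, Il21r and Il9r 0, and Il15ra 9 and 3 in windows at separate starts. GGAA was found in 93.4% of the 32851 promoter windows of the same length, with a mean of 2.91 matches, so these letters are common and are given as a description only.

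Il2ra, the alpha chain of the high-affinity IL-2 receptor, showed the largest change of the family and became its most abundant member in every effector library. Its gene lies on the plus strand of chromosome 2, from 11642792 to 11693194. FPKM was 4.55 and 5.67 in naive cells, 611 and 604 in Th1 cells, 787 and 644 in Th2 cells, and 865 and 821 in Th17 cells. No effector library came near the naive range. The mean rose 119-fold in Th1 cells, 139.9-fold in Th2 cells and 165-fold in Th17 cells, with log2 differences of 6.64 ± 0.14, 6.87 ± 0.14 and 7.12 ± 0.14 (SE, limma, adjusted p = 1.82e-07, 1.35e-07 and 1.51e-07). These held in all 16 alternatives. Il2ra and Il2rb are among the receptors that the study itself picked from these libraries, so their direction is not independent evidence. Between subsets, Th1 cells were lower than Th17 cells by -0.47 ± 0.14 (limma, adjusted p = 0.0495). That call passed in 9 of 16 alternatives (adjusted p 0.0128 to 0.180, limma) and was lost without either Th1 or either Th17 library (-0.43 to -0.51, adjusted p 0.136 to 0.180, limma). Th2 cells did not differ detectably from Th1 (-0.23, Th1 minus Th2, 95% interval -0.56 to 0.10) or Th17 cells (0.24, Th17 minus Th2, 95% interval -0.09 to 0.58).

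Il2rb, the signaling chain shared by IL-2 and IL-15, rose to about the same level in all 3 subsets. It lies on the minus strand of chromosome 15, from 78480549 to 78495066. FPKM was 8.79 and 16.8 in naive cells, 370 and 434 in Th1 cells, 400 and 417 in Th2 cells, and 349 and 399 in Th17 cells. The means were 31.4, 31.9 and 29.2 times the naive mean. The log2 differences were 4.93 ± 0.26 in Th1 cells, 4.95 ± 0.26 in Th2 cells and 4.82 ± 0.26 in Th17 cells (SE, limma, adjusted p = 5.85e-06, 4.63e-06 and 5.6e-06), and all 3 held in all 16 alternatives. No pair of subsets differed by the test, the 95% interval being -0.65 to 0.60 for Th1 minus Th2, -0.52 to 0.63 for Th1 minus Th17 and -0.76 to 0.50 for Th17 minus Th2. By ratio, the naive libraries differed from each other more for Il2rb than for any other member tested. Naive replicate 2, with the higher Il2rb, also had the higher FPKM of the regulatory T cell markers Foxp3 (12.8 against 6.68) and Ikzf4 (2.30 against 1.18), and the lower FPKM of the CD8 T cell gene Cd8b1 (52.8 against 90.5). The part of these cells in the naive level of Il2rb was not tested. In effector libraries Foxp3 was lower (0.423 to 5.76) and Ikzf4 higher (10.1 to 21.2) than in both naive libraries. Within each effector group, replicate 2 again had the higher Il2rb, Foxp3 and Ikzf4 and the lower Cd8b1, so this replicate pattern was not particular to naive cells.

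Il4ra, the chain that pairs with Il2rg to bind IL-4, separated all 4 groups. It lies on the plus strand of chromosome 7, from 125552282 to 125579474. FPKM was 69.1 and 77.9 in naive cells, 88.0 and 99.4 in Th1 cells, 296 and 258 in Th2 cells, and 161 and 179 in Th17 cells, and no 2 groups overlapped. Th2 cells, the culture given IL-4, had the highest level, 3.77 times the naive mean (log2 difference 1.90 ± 0.13, SE, limma, adjusted p = 1.39e-05). Th17 cells followed at 2.31 times the naive mean (1.20 ± 0.13, limma, adjusted p = 0.00015) and Th1 cells, cultured with a lower dose of anti-IL-4 Ab than Th17 cells, at 1.27 times (0.35 ± 0.13, limma, adjusted p = 0.0447). The Th1 difference from naive cells is the weakest of these. It passed in 8 of 16 alternatives (adjusted p 0.0179 to 0.278, limma) and was lost without naive replicate 1 (0.26), without Th1 replicate 1 (0.43) or 2 (0.26), and without either Th17 library, which do not enter the difference itself (adjusted p 0.0569 to 0.209 for these 5, limma). Between subsets, Il4ra was lower in Th1 than in Th2 cells by -1.55 ± 0.13 (limma, adjusted p = 0.000129), lower in Th1 than in Th17 cells by -0.85 ± 0.13 (limma, adjusted p = 0.00326), and lower in Th17 than in Th2 cells by -0.70 ± 0.13 (limma, adjusted p = 0.00508). All 3 held in all 16 alternatives. An antisense gene, Gm44876, shares 571 exon bases with Il4ra and is not among the genes listed. The sources disagree on whether the library kit kept the strand, so any reads from Gm44876 may have been counted to Il4ra.

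Il7r, which pairs with Il2rg to bind IL-7, was higher in Th1 cells than in every other group. It lies on the minus strand of chromosome 15, from 9506159 to 9529876. FPKM was 90.6 and 76.5 in naive cells, 187 and 165 in Th1 cells, 62.8 and 53.2 in Th2 cells, and 71.8 and 61.9 in Th17 cells. Both Th1 libraries stood above all others, both naive libraries came next, and the Th2 and Th17 libraries overlapped. The Th1 mean was 2.11 times the naive mean (log2 difference 1.07 ± 0.14, SE, limma, adjusted p = 0.000529). Th1 cells were also above Th2 cells by 1.59 ± 0.14 (limma, adjusted p = 0.00021) and above Th17 cells by 1.38 ± 0.14 (limma, adjusted p = 0.000665), and these 3 calls held in all 16 alternatives. Th2 cells fell below naive cells (-0.52 ± 0.14, limma, adjusted p = 0.0145), a call lost with median scaling (-0.38, adjusted p = 0.0572, limma), without naive replicate 1 (-0.40, adjusted p = 0.0781, limma) and without Th2 replicate 2 (-0.40, adjusted p = 0.0853, limma). For Th17 minus naive the difference was -0.32 ± 0.14 (limma, adjusted p = 0.0888, 95% interval -0.66 to 0.02), which passed with the replicate number as a block (limma, adjusted p = 0.00614) and with quantile normalization (-0.51, adjusted p = 0.0161, limma), the adjusted p being 0.00614 to 0.339 over the alternatives. The Il7r window was the only one of the 7 members' that held TTCNNNGAA, a motif bound by STAT5 and other STAT factors, searched on both strands. The match with 10 bases on either side (chr15:9530000-9530028, minus strand, GRCm38.p6) has the motif in capitals.
Il7r: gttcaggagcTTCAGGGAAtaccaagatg
It starts 142 bases before the RefSeq start, within the longer gene that GENCODE annotates, and its last 4 letters are also a GGAA. TTCNNNGAA was present in 7.02% of the 32851 promoter windows, and the same motif with 1 letter more between its ends, in 5.85% of windows, was in no member's window. The motifs were chosen with the members' sequences in view, and a match of letters is not evidence of binding.

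Il21r, the chain for IL-21, was abundant in naive cells and rose in Th2 and Th17 cells. It lies next to Il4ra on the plus strand of chromosome 7, from 125603429 to 125633570. FPKM was 75.2 and 85.2 in naive cells, 83.4 and 92.9 in Th1 cells, 117 and 113 in Th2 cells, and 120 and 132 in Th17 cells. Naive and Th1 libraries overlapped, and all Th2 and Th17 libraries lay above them. The rise was 1.43-fold in Th2 (log2 difference 0.52 ± 0.11, SE, limma, adjusted p = 0.005) and 1.57-fold in Th17 cells (0.65 ± 0.11, limma, adjusted p = 0.00182), both in all 16 alternatives. Th1 minus naive was 0.14 (95% interval -0.13 to 0.40, limma, adjusted p = 0.316). Th1 cells were lower than Th17 cells (-0.51 ± 0.11, limma, adjusted p = 0.0169) and lower than Th2 cells (-0.38 ± 0.11, limma, adjusted p = 0.0309). The first was lost without Th1 replicate 1 (-0.43, adjusted p = 0.104, limma) and without Th17 replicate 2 (-0.44, adjusted p = 0.0963, limma), and the second when any of the 4 libraries compared was left out (-0.30 to -0.46, adjusted p 0.0603 to 0.151, limma).

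Il15ra, the alpha chain that binds and presents IL-15, was low throughout and was highest in Th1 cells. It lies close to Il2ra on the plus strand of chromosome 2, from 11705536 to 11733962. FPKM was 8.23 and 8.33 in naive cells, 9.50 and 11.3 in Th1 cells, 4.36 and 5.63 in Th2 cells, and 5.63 and 5.91 in Th17 cells. Th1 libraries were highest, naive libraries next, and Th2 and Th17 libraries met at 5.63. It fell below naive cells in Th2 (-0.64 ± 0.13, SE, limma, adjusted p = 0.00371) and Th17 cells (-0.46 ± 0.13, limma, adjusted p = 0.0175), the opposite direction to Il2ra. Th1 cells were above Th2 cells by 0.93 ± 0.13 (limma, adjusted p = 0.00152) and above Th17 cells by 0.75 ± 0.13 (limma, adjusted p = 0.00665). Th1 minus naive was 0.29 (95% interval -0.02 to 0.60, limma, adjusted p = 0.0838), which passed with the replicate number as a block (limma, adjusted p = 0.0337) and in none of the other 15 alternatives (up to 0.367). Of the called differences, that of Th17 from naive cells was lost when any of the 4 naive and Th17 libraries was left out (-0.43 to -0.49, adjusted p 0.0586 to 0.0867, limma), and that of Th1 from Th17 cells without Th1 replicate 2 (0.63, adjusted p = 0.0523, limma) or Th17 replicate 1 (0.72, adjusted p = 0.0506, limma).

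Il9r, the IL-9 receptor chain on the minus strand of chromosome 11 (32188997 to 32200279), was near the limit of detection. FPKM was 0.091 and 0.396 in naive cells, 0.045 and 0.024 in Th1 cells, 0.193 and 0.173 in Th2 cells, and 0.097 and 0.144 in Th17 cells. These values stand for 1 to 24 implied fragments per library, the highest being naive replicate 2. Fitted without a filter, none of its 6 differences passed (limma, adjusted p 0.109 to 0.709), so a difference was not detectable at this depth. IL-9 is known as a mast cell factor, and of the 3 mast cell genes examined Fcer1a was listed at 0 in all 8 libraries. Mcpt4 was listed at 0 in all but naive replicate 1 (0.0556), and Cpa3 did not exceed 0.239 (9 implied fragments), in Th2 replicate 2.

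**Figure D2:**
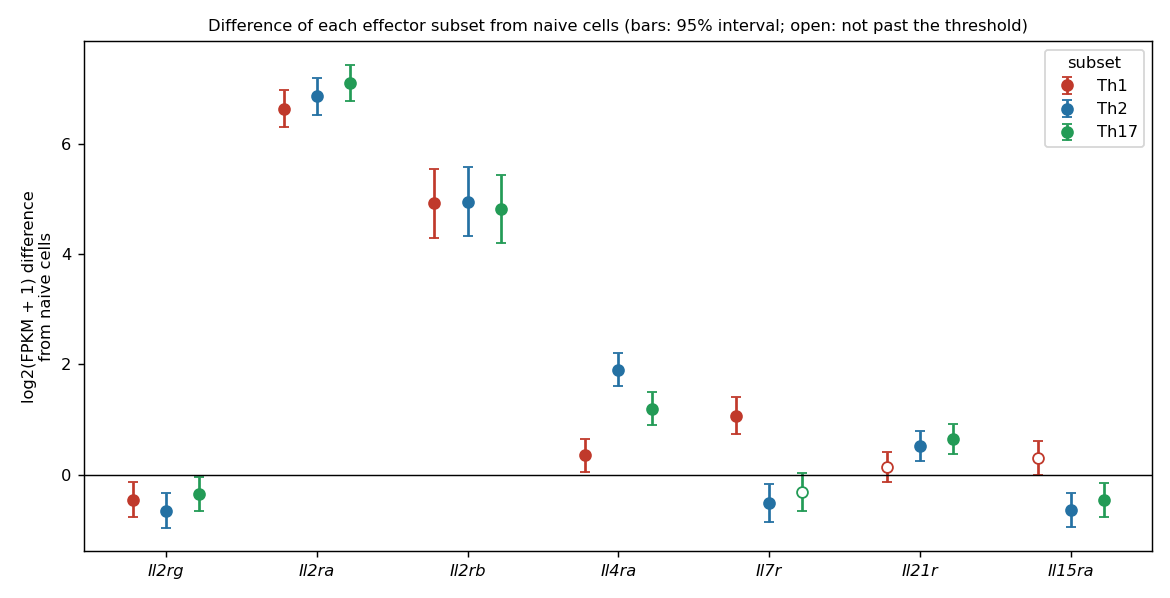
Difference of Th1, Th2 and Th17 cells from naive cells in log2(FPKM + 1), for the 7 members tested. Points are limma estimates, bars 95% intervals, and open points did not pass an adjusted p of 0.05. Il2ra and Il2rb lie between 4.82 and 7.12 in every subset, Il2rg lies below 0, and Il7r and Il15ra lie above 0 in Th1 and below 0 in Th2 and Th17.

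Comparing the subsets with each other, the members fell into those that were alike and those that were not. Il2rg and Il2rb passed in none of the 3 pairs of subsets. In Th1 against Th2 cells, Il7r and Il15ra were higher and Il4ra and Il21r lower, 2 members each, where 27.4% of all genes tested were higher and 16.9% lower. In Th1 against Th17 cells, Il7r and Il15ra were again higher and Il2ra, Il4ra and Il21r lower, against 9.17% and 16% of all genes. In Th17 against Th2 cells, Il4ra was lower and no member was higher, against 12% of all genes lower and 31.7% higher. With the replicate number as a block, 3 members passed in that last pair, the added ones being Il2rg, higher in Th17 by 0.31 (limma, adjusted p = 0.0318, and up to 0.435 over the alternatives), and Il7r, higher in Th17 by 0.20 (limma, adjusted p = 0.0468, and up to 0.928). These 3 pairs share libraries and are not independent of each other or of the comparisons with naive cells.

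The order of the levels by mean FPKM follows from these tests. For Il4ra it was Th2, Th17, Th1 and naive, and each step passed. For Il7r it was Th1, naive, Th17 and Th2, where only the first step passed. For Il15ra it was Th1, naive, Th17 and Th2, where the step from naive to Th17 cells passed. For Il21r it was Th17, Th2, Th1 and naive, where the step from Th2 to Th1 cells passed. For Il2ra it was Th17, Th2, Th1 and naive and for Il2rb Th2, Th1, Th17 and naive, with only the last step, to naive cells, passing in each. For Il2rg it was naive, Th17, Th1 and Th2, and only the first step passed.

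The balance between the shared chain and the chains that pair with it was reversed between naive and effector cells. The 5 signaling partners, Il2rb, Il4ra, Il7r, Il9r and Il21r, summed to an FPKM of 244 and 257 in naive cells, below Il2rg in the same libraries. In effector cells they summed to 729 and 791 in Th1 cells, 875 and 842 in Th2 cells, and 702 and 772 in Th17, above Il2rg in all 6 libraries. The partners per Il2rg were 0.61 ± 0.011 in naive cells, 2.54 ± 0.11 in Th1 cells, 3.31 ± 0.24 in Th2 cells and 2.29 ± 0.14 in Th17 cells (SD, n = 2). A scaling factor of a library cancels in this ratio. Each effector library lay above both naive libraries, and both Th2 libraries lay above the other effector libraries, but no test was made, since an exact permutation test of 2 against 2 libraries cannot give a p below 0.333. With Il2ra and Il15ra added, the ratio was 0.643 in naive cells, 4.62 in Th1 cells, 6.09 in Th2 cells and 4.95 in Th17 cells. Il2rg accounted for 60.9% ± 0.45 of the FPKM of all 8 members in naive cells and for 17.8% ± 1.04, 14.2% ± 1.49 and 16.9% ± 1.61 in Th1, Th2 and Th17 cells. These are ratios of mRNA, and chains at the cell surface were not measured here.

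The leading partner was the same in all 3 effector subsets. Naive libraries were led by another, Il7r in replicate 1 and Il21r in replicate 2. In naive cells Il7r (33.5% ± 5.21), Il21r (32.0% ± 1.64) and Il4ra (29.3% ± 1.41) had similar shares of the partners, and Il2rb had 5.08% ± 2.08 (SD, n = 2). Il2rb took the largest share in each effector subset, 52.8% ± 2.86 in Th1 cells, 47.6% ± 2.76 in Th2 cells and 50.7% ± 1.36 in Th17. The remainder was divided by subset. In Th1 cells Il7r was second with 23.2% ± 3.40, ahead of Il4ra with 12.3% ± 0.34 and Il21r with 11.6% ± 0.21. In Th2 cells Il4ra was second with 32.2% ± 2.19, and Il7r had 6.74% ± 0.60. In Th17 cells Il4ra had 23.0% ± 0.15, Il21r 17.1% ± 0.045 and Il7r 9.12% ± 1.56. Il4ra per Il7r therefore ran from 0.471 and 0.602 in the Th1 libraries and 0.763 and 1.02 in the naive libraries to 2.24 and 2.89 in Th17 and 4.71 and 4.86 in Th2 cells, with no overlap between groups. Il2ra per Il2rg was 0.0125 ± 0.0017 in naive cells, 2.04 ± 0.22 in Th1 cells, 2.76 ± 0.51 in Th2 cells and 2.64 ± 0.43 in Th17 cells.

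**Figure D3:**
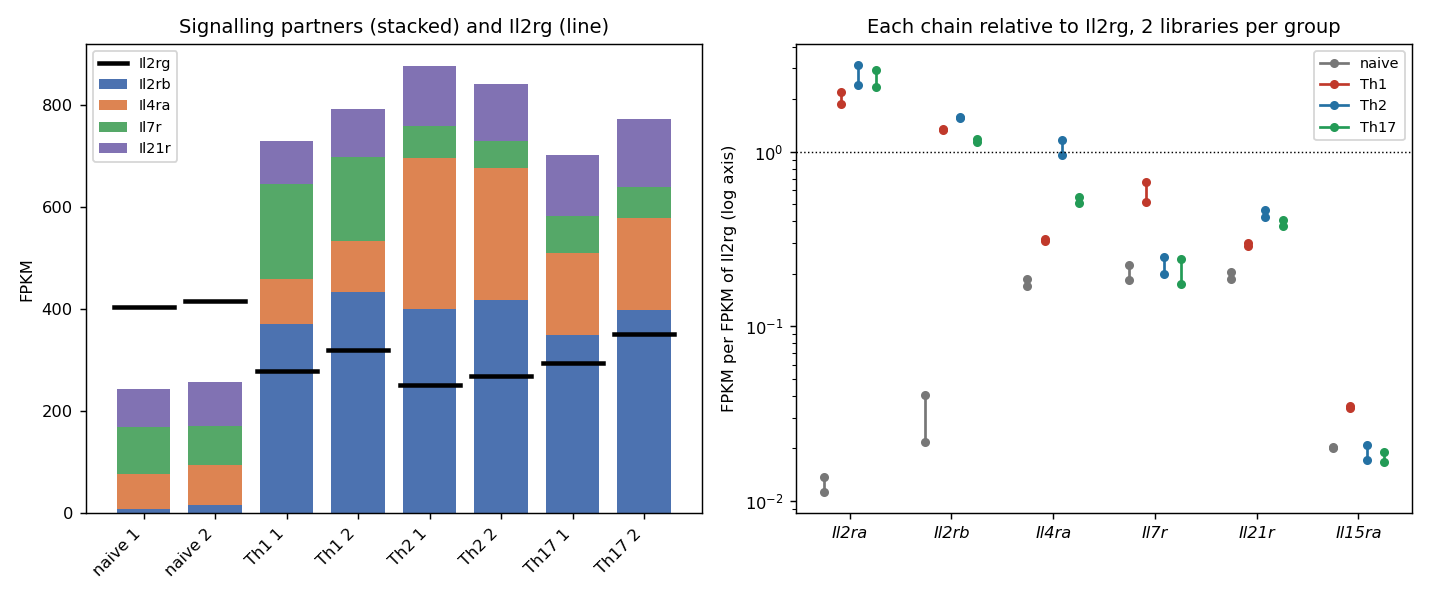
Left, FPKM of Il2rb, Il4ra, Il7r and Il21r stacked per library (linear axis from 0; Il9r is too low to be drawn), with Il2rg as a black line: the stack lies below the line in both naive libraries and above it in all 6 effector libraries. Right, FPKM of each chain per FPKM of Il2rg on a log axis, each point a library and each line joining the 2 libraries of a group, with a dotted line at 1; Il2ra and Il2rb lie above 1 in effector cells, and Il4ra lies near 1 in Th2.

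Of the 6 ligands of the family, only Il4 and Il21 passed the filter. Il4 was listed at 0 in both naive libraries and had an FPKM of 1.14 and 1.20 in Th1 cells, 129 and 97.6 in Th2 cells, and 5.003 in both Th17 libraries. Il21 was at 0.0761 and 0.0306 in naive cells, 7.36 and 5.59 in Th1 cells, 22.4 and 18.9 in Th2 cells, and 42.3 and 41.1 in Th17 cells. Both were higher in each subset than in naive cells (limma, adjusted p 1.33e-07 to 0.000306), Il4 being highest in Th2 and Il21 in Th17 cells. With so little in naive cells, both could pass the filter only through effector libraries. Their rise from naive cells was thus largely set by the filter and is not independent support. Il2 stood at 0.795 and 0.446 in Th17 and at 0.177 or less in every other library. Il9 was detected in Th17 cells alone (0.843 and 0.623, with 9 and 5 implied fragments), Il15 did not exceed 0.116, and Il7, which is made mainly by stromal cells, was listed at 0 in all 8 libraries.

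A few further chains share ligands or partners with the family without Il2rg. Crlf2, which pairs with Il7r to bind TSLP, was at 13.7 and 13.3 in naive cells, 18.5 and 20.6 in Th1 cells, 34.5 and 32.5 in Th2 cells, and 18.5 and 24.8 in Th17 cells. It was higher in each subset than in naive cells (log2 differences 0.50, 1.25 and 0.63, limma, adjusted p = 0.0166, 0.000194 and 0.00619). Il13ra1, which pairs with Il4ra, did not pass the filter and reached at most 1.83, in Th17 replicate 1. Il13ra2, a decoy receptor for IL-13, was found in Th2 libraries only, at 0.0983 and 0.125.

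The kinases that the chains carry moved in opposite directions. Jak3, bound by Il2rg, was at 39.8 and 61.4 in naive cells, 173 and 202 in Th1 cells, 323 and 358 in Th2 cells, and 229 and 267 in Th17 cells. Jak1, bound by the partner chains, was at 142 and 154 in naive cells, 60.8 and 69.0 in Th1 cells, 47.0 and 52.4 in Th2 cells, and 49.3 and 55.96 in Th17 cells. Jak3 rose by 1.90, 2.76 and 2.30 on the log2 scale in Th1, Th2 and Th17 cells (limma, adjusted p = 0.0002, 2.7e-05 and 7.15e-05), and Jak1 fell by 1.18, 1.55 and 1.47 (limma, adjusted p = 0.000128, 2.71e-05 and 3.71e-05). Jak3 per Jak1 was 0.34 ± 0.083 in naive cells, 2.89 ± 0.054 in Th1 cells, 6.85 ± 0.021 in Th2 cells and 4.71 ± 0.084 in Th17 cells (SD, n = 2). This is the reverse of the balance of their receptor chains, where Il2rg fell and the summed partners rose. Of the 10 signaling genes examined, 2 were higher and 3 lower in Th1 cells, and 5 higher and 2 lower in each of Th2 and Th17 cells, with medians of -0.19, 0.66 and 0.35. Over all genes tested, 33.8% were higher and 33.5% lower in Th1, 31.8% and 38.7% in Th2 cells, and 37.5% and 29.8% in Th17, so with 10 genes these counts do not set the list apart. Irs2, an adaptor of the IL-4 receptor, was at 2.81 and 2.76 in Th1 but 18.1 and 15.4 in Th2 cells and 12.8 and 16.0 in Th17 cells, and was lower in Th1 than in Th2 cells by -2.22 ± 0.15 (limma, adjusted p = 5.63e-05). Gab2, another adaptor, was under 0.1 in naive cells and at most 3.98, in Th2 replicate 2, its difference in Th2 cells being 2.03 ± 0.16 (limma, adjusted p = 3.08e-05). Gab2 too could pass the filter only through effector libraries. Stat3 and Stat5a rose in Th2 and Th17 cells but did not pass in Th1 cells, where Stat3 differed from naive cells by -0.04 (limma, adjusted p = 0.857), and Stat6 was lower in Th1 than in naive cells (-0.60 ± 0.15, limma, adjusted p = 0.00954).

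Genes known as targets or feedback inhibitors of STAT5 and STAT6 were mostly higher in effector cells. Among the 14 listed, Th1 cells had 10 higher and 3 lower than naive cells, with 11 higher and 1 lower in each of Th2 and Th17 cells, with medians of 2.45, 1.48 and 1.97. Of all genes tested, 31.8% to 37.5% were higher and 29.8% to 38.7% lower in these comparisons. Cish, a STAT5-induced feedback inhibitor, was at 18.4 and 15.6 in naive cells, 249 and 230 in Th1 cells, 295 and 251 in Th2 cells, and 244 and 260 in Th17 cells. It rose to about the same level in each subset, as Il2rb did. Socs2, another inhibitor of the family, was at 0.840 and 0.845 in naive cells, 98.3 and 93.8 in Th1 cells, 134 and 119 in Th2 cells, and 75.5 and 69.2 in Th17 cells. Its naive level lay below the FPKM of 1 used as filter, so Socs2 passed only through effector libraries. Lta, which encodes lymphotoxin alpha, was at 12.1 and 10.0 in naive cells, 412 and 372 in Th1 cells, 26.3 and 26.6 in Th2 cells, and 365 and 358 in Th17 cells, so the list did not move as one. Myc, a driver of growth, was highest in Th1 cells (216 and 227, against 33.5 and 31.4 in naive). The largest differences of these 4 genes were 3.93 for Cish and 6.11 for Socs2 in Th2 cells, and 5.03 for Lta and 2.73 for Myc in Th1 cells (limma, adjusted p 6.68e-08 to 1.91e-06). Socs3, which inhibits STAT3 signaling, was higher than naive in Th2 (1.27 ± 0.11, limma, adjusted p = 4.58e-05) and lower in Th1 cells (-0.45 ± 0.11, limma, adjusted p = 0.00867). The survival gene Bcl2 was at 22.1 and 20.8 in naive cells and between 75.2 and 88.2 in every effector library, whereas Mcl1 fell in Th1 and Th17 cells (-1.01 and -0.94, limma, adjusted p = 0.000367 and 0.000524). Bcl6, which STAT5 represses, was 4.02 and 6.05 in naive, 1.84 and 2.46 in Th1 and 0.552 and 0.593 in Th2 cells. In Th17 cells it was 2.64 and 4.44 and did not pass against naive cells (-0.42, limma, adjusted p = 0.155).

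Each of the 4 transcription factors with a known part in Il7r expression changed in the same direction from naive cells in every subset. Foxo1, an activator of Il7r, was at 68.6 and 70.8 in naive cells, 20.8 and 22.3 in Th1 cells, 41.4 and 43.3 in Th2 cells, and 15.7 and 18.1 in Th17 cells. Th1 cells had less Foxo1 than Th2 cells (-0.95 ± 0.10, limma, adjusted p = 0.000419). Foxp1, known to oppose Foxo1 at Il7r, was at 37.9 and 36.4 in naive cells, 5.69 and 6.77 in Th1 cells, 0.880 and 1.58 in Th2 cells, and 3.08 ± 0.12 (SD, n = 2) in Th17 cells, a fall of 4.12 on the log2 scale in Th2 (limma, adjusted p = 1.06e-06). Gfi1, a repressor of Il7r, was at 4.24 and 3.80 in naive cells, 16.0 and 15.4 in Th1 cells, 36.8 and 24.5 in Th2 cells, and 13.4 and 12.9 in Th17 cells. It rose in all 3 subsets, most in Th2 cells (2.63 ± 0.18, limma, adjusted p = 1.4e-05). Gabpa, an ETS factor at the Il7r promoter, fell in all 3 by 0.31 to 0.53 on the log2 scale (limma, adjusted p 0.00448 to 0.0394). Of the 4, 1 was higher and 3 were lower in each subset, where 31.8% to 37.5% of all genes were higher and 29.8% to 38.7% lower. In Th1 against Th2 cells, Foxp1 was higher (1.71 ± 0.16, limma, adjusted p = 0.000238) and Gfi1 lower (-0.90 ± 0.18, limma, adjusted p = 0.00654). Gabpa did not pass in that pair (0.13, limma, adjusted p = 0.361). The part of these factors in the level of Il7r was not tested.

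**Figure D4:**
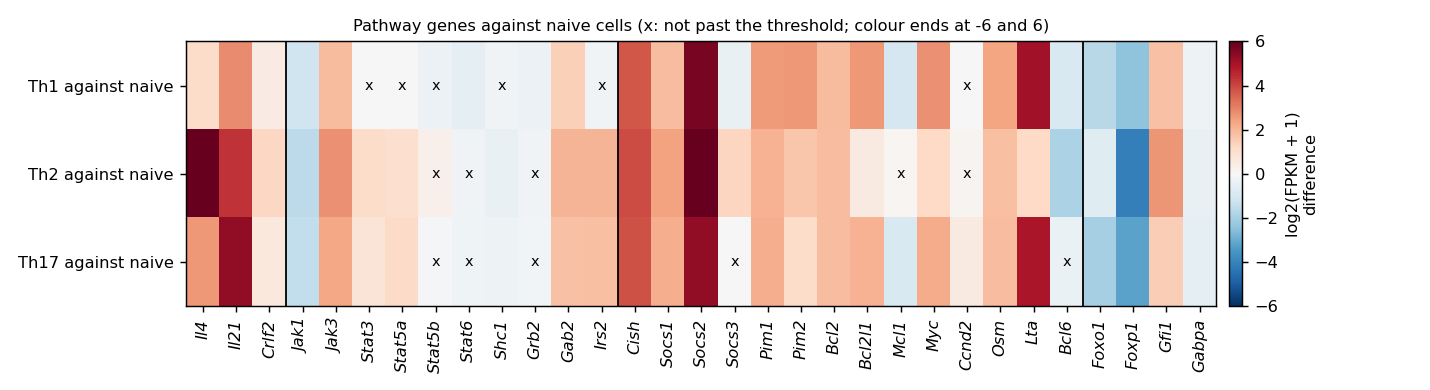
Difference from naive cells in log2(FPKM + 1) of the tested ligands and Crlf2, the signaling genes, the STAT targets and the Il7r regulators (blocks from left to right, parted by lines), with 1 row per subset. Red is higher and blue lower than naive cells, colors end at -6 and 6, and an x marks genes that did not pass an adjusted p of 0.05; Jak3 is red and Jak1 blue in every row, and Lta is pale in Th2 only.

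For each member tested, the genes with the most similar profile were sought among 6194 genes averaging an FPKM of 10 or more, by the root mean square difference of centred log2(FPKM + 1) over the 8 libraries, where smaller is closer. The closest to Il2ra were Aldoc (0.32), Slc16a3 (0.37) and Anxa2 (0.41), of which Aldoc encodes a glycolytic enzyme and Slc16a3 a lactate transporter. Il2rb was closest to Ndrg1 (0.17), Mki67 (0.22), a marker of dividing cells, and Plod2 (0.25). Mki67 rose from an FPKM of 0.577 and 1.06 in naive cells to between 44.7 and 80.5 in effector cells. Il2rg was closest to Sppl3 (0.042), Wiz (0.049) and Prpf3 (0.051), all genes of small change. For Il4ra they were Glb1 (0.13), a lysosomal enzyme, Mapre2 (0.15) and Rap1gds1 (0.17). Mapre2 was at 4.28 and 5.12 in naive cells, 5.55 and 6.02 in Th1 cells, 24.3 and 24.7 in Th2 cells, and 11.9 and 13.9 in Th17 cells, the order of Il4ra. For Il7r they were Rfk (0.14), the riboflavin kinase, Glipr1 (0.17) and Fbxo28 (0.18), and for Il15ra Tmem192 (0.12), Eif2ak3 (0.12), a kinase of the unfolded protein response, and Aplp2 (0.12). Il21r was closest to Satb1 (0.079), a chromatin organizer, Hadha (0.093), an enzyme of fatty acid oxidation, and 2610027L16Rik (0.094). All profiles come from the same 8 libraries, so they describe likeness only.

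Of the genes of other cell types, the CD8 T cell gene Cd8b1 was the highest, in naive cells. The 3 B cell markers summed to 4.513 and 5.6002 in naive and 1.67 to 7.31 in effector libraries. The 3 monocyte and macrophage markers summed to 10.004 and 10.98 in naive and 6.95 to 21.4 in effector libraries. The highest sum, in Th2 replicate 1, was mostly Lyz2 (19.9), and the other markers did not follow it. Mean Csf1r was 3.52 in naive and 0.915 in Th2 cells, and mean Cd14 was highest in Th17 cells (4.08, against 0.548 in Th2). The 3 dendritic cell markers summed to at most 2.29 and the 2 natural killer cell markers to at most 0.625, with Ncr1 listed at 0 in all effector libraries. The 2 CD8 T cell markers summed to 93.4 and 54.5 in naive and 8.94 to 13.0 in effector libraries. Most of the naive sums came from Cd8b1 (90.5 and 52.8), while Cd8a was at 2.94 and 1.77. For the 2 regulatory T cell markers the sums were 7.86 and 15.1 in naive cells, 11.01 and 11.3 in Th1 cells, 12.9 and 17.1 in Th2 cells, and 20.4 and 27.0 in Th17 cells. The sums in effector cells were made up mostly of Ikzf4, whose means were 10.2, 14.5 and 19.3 in Th1, Th2 and Th17, while those of Foxp3 were 1.00, 0.482 and 4.40. The part of such cells in the levels of the family was not tested.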

How the data were processed

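RNA was sequenced from 8 libraries, 2 each of naive, Th1, Th2 and Th17 cells, grouped by the sample labels. The authors aligned reads to mm10 with Bowtie (0.12.8) and TopHat (1.3.2), computed FPKM per gene with Cufflinks (2.0.2), and deposited FPKM with a confidence interval per library. The annotation they used is not given in the sources used here. FPKM of rows that share a symbol was summed. Depth was estimated from the interval widths, as if they held counting error only, so it is approximate.

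Values were compared as log2(FPKM + 1) with limma (version 3.58.1 under R 4.3.3, its lmFit and its eBayes function with trend), two-sided, in a single fit of 4 group means over 8 libraries, for the 11198 genes averaging an FPKM of 1 or more. Benjamini-Hochberg adjustment covered all genes tested, and the threshold was 0.05. The fit was checked on simulated data. Python 3.11.15 (numpy 2.4.6, pandas 2.3.3) was used for tables. No source says whether replicates came from separate mice or cultures, so p-values measure the spread between these libraries, which may be technical. Replicate numbers come from the sample titles. Between groups, the replicate differences correlated with r = 0.138 to 0.294 for all 6 pairs of groups, so the libraries were treated as paired in an alternative with the replicate number as a block.

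Alternatives were a pseudocount of 0.1, no filter, median scaling, quantile normalization, only the 2 groups compared, no trend, the replicate block, the largest row per symbol, and each library left out, 16 values per result. The members and gene lists were chosen with earlier results of these data known. All members, ligands and other chains are named, with the 4 genes of largest difference in each other list, further genes of those lists that passed in at least 1 comparison, and the 3 genes of most similar profile per member. Some of the listed cell type markers are not reported here. Positions of the member genes are those deposited with the FPKM. Promoter windows are from RefSeq (GRCm38.p6) and overlaps from GENCODE M21.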

Additional observations from a re-analysis of the deposited data

Results flagged for a closer look

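In 5 cases the change from naive cells differed between 2 subsets by the test of that difference (limma, adjusted p under 0.05), with the pair giving the largest difference shown for each member. Il7r changed more in Th1 than in Th2 cells by 1.59 on the log2 scale (adjusted p = 0.00021), rising in the first and falling in the second. Il15ra differed in the same direction by 0.93 (adjusted p = 0.00152). Il4ra rose less in Th1 than in Th2 cells, the difference being -1.55 (adjusted p = 0.000129). For Il21r, Th1 minus Th17 was -0.51 (adjusted p = 0.0169), and for Il2ra it was -0.47 (adjusted p = 0.0495), the latter past the threshold in 9 of 16 alternatives. Il2rb gave no such difference with or without the replicate block, and Il2rg gave it only with the block, in Th17 against Th2 cells.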

How the results depend on the processing

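The results rest on 2 libraries per group, and the FPKM values carry no read counts. Of 672 member differences recomputed under the alternatives, 619 kept their direction and side of the threshold, 41 lost a call, 5 gained a call and 7 changed sign, none of these 7 past the threshold. The cause was not tested. The replicate block raised the members called in Th17 against Th2 from 1 to 3 and added Il7r in Th17 and Il15ra in Th1 against naive cells, and it changed no other call of a member. With each library left out, the members called were 3 to 5 in Th1 against naive (5 with all libraries), 3 to 5 in Th1 against Th17 (5), 3 to 4 in Th1 against Th2 (4), 6 to 7 in Th2 against naive (7), 4 to 5 in Th17 against naive (6) and 1 in Th17 against Th2 (1). The count of 3 arose in the first without Th1 replicate 1 and in the second without either Th1 or either Th17 library. Partners per Il2rg with Il2ra and Il15ra added were 0.643 in naive, 4.62 in Th1, 6.09 in Th2 and 4.95 in Th17. The sign changes with a library left out were Il2rb in Th1 against Th2 (-0.14 to 0.089), Il2rb in Th1 against Th17 (-0.010 to 0.22) and Il2rg in Th1 against Th17 (-0.23 to 0.023). With quantile normalization Il15ra in Th17 against Th2 became -0.028 and Il21r in Th1 against naive -0.081, and with median scaling Il21r in Th17 against Th2 became -0.053.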

Other observations

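Placed among the 11198 genes tested in the same library, the members moved between very different parts of the range. Il2ra stood at the 29.0 and 32.9 percentile of FPKM in the naive libraries and at 99.0 to 99.3 in the effector libraries. Il2rb went from 43.3 and 62.4 to between 98.3 and 98.6. Il2rg remained high, at 98.7 and 98.8 in naive and 97.6 to 98.3 in effector libraries, although it fell in FPKM. Il4ra ranged from 92.0 to 97.9, Il7r from 89.0 to 96.6 and Il21r from 92.6 to 95.4 over the 8 libraries, while Il15ra lay between 27.1 and 50.8. Within the family, Il2ra was first and Il2rb second in each effector library, whereas Il2rg was first in both naive libraries.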
